A study of Mus musculus with 22 samples.

Results

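The 12 libraries described here compare calorie-restricted (CR) with ad libitum-fed (AL) mice at 15 months of age, 6 mice per diet, out of 22 libraries in the series. They were taken by their diet and age labels, with no use of the measured values. Each library is mRNA from the hippocampal CA1 region of 1 female mouse of a mixed background (Swiss Webster crossed with DBA/C57BL6), microdissected before the tissue was frozen. AL mice ate a normal diet without limit, and CR mice were kept from young adulthood on a diet reduced in carbohydrates. The other 10 libraries are AL and CR mice at 5 months, 5 per diet. They entered the same model and give the CR effect at the younger age. No transgene or other treatment distinguishes the groups, and the mice of one group are separate animals.

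CA1 is the output field of the hippocampus proper, and its pyramidal neurons carry much of the signal on which spatial and episodic memory rely. Calorie restriction is a reduced energy intake without malnutrition that extends lifespan in many species. Cells meet misfolded protein with chaperones. In the endoplasmic reticulum (ER) these are the BiP, calreticulin and protein disulfide isomerase proteins, whose genes are induced by the unfolded protein response, and in the cytosol they are the heat shock proteins, whose genes are induced by heat shock factor.

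The deposited values are FPKM, fragment counts scaled to transcript length and to the number of mapped fragments. Differences are given as log2 differences, the fitted mean of log2(FPKM + 0.1) in CR minus that in AL, with the standard error (SE). This scale understates the change of genes with low FPKM. A gene is called when the adjusted p of limma, the linear model fitted across all genes, is under 0.05. Of 16978 genes tested at 15 months, 126 were called (0.742%), 56 of them higher in CR mice (0.33%) and 70 lower (0.412%). The median log2 difference over all genes tested was -0.00, and 49.6% of the genes lay above 0. The called genes that rose had a median log2 difference of 0.47 and a median AL level of 17.9 FPKM. Those that fell had a median log2 difference of -0.61 and a median AL level of 5.01 FPKM, and 17 of them stayed under a mean of 1 FPKM in both groups, against 1 of those that rose. The 6 CR and 6 AL libraries did not overlap in 64 of the 126 called genes (50.8%), whereas 167 of all genes tested were without overlap (0.984%). The split by direction depended on scaling: with every library shifted to a common median 63.0% of the calls were higher in CR mice, and with quantile normalization 67.5%, against 44.4% on the values as deposited.

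**Figure D1:**
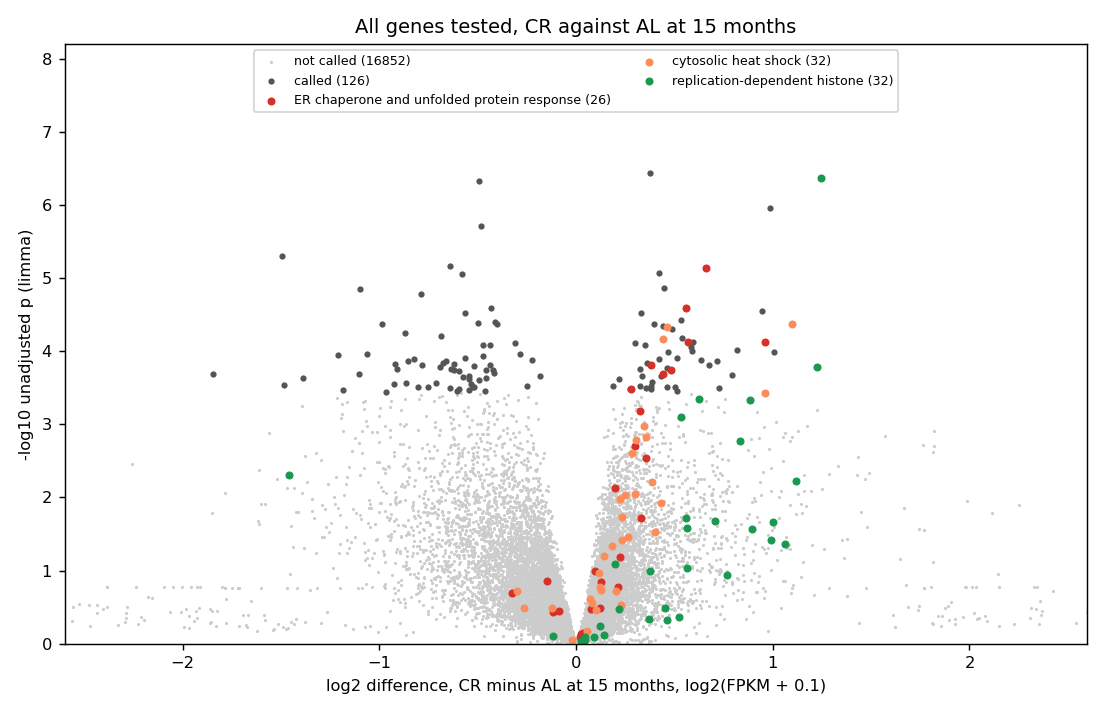
Log2 difference (CR minus AL at 15 months, horizontal axis) against -log10 of the unadjusted limma p (vertical axis) for the genes tested, 1 point per gene, with 3 gene lists in color; 97 genes, 3 of them called, lie outside the horizontal axis limits of 2.6. Members of the ER chaperone and cytosolic heat shock lists sit mostly to the right of 0, and the 126 called genes fall on both sides.

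The number of calls rested on the choice of libraries. When the 12 libraries at 15 months were fitted without those at 5 months, limma called 0 genes, 2003 genes had an unadjusted p under 0.05 against 2902 (17.1%) in the fit of all libraries, and the smallest adjusted p was 0.0781. The median within-group SD of log2 values over the genes tested was 0.202 in AL and 0.252 in CR mice at 15 months, against 0.157 and 0.172 at 5 months. Leaving out CR replicate 0 raised the number of calls to 732 and leaving out CR replicate 5 to 492. Leaving out AL replicates 0 to 5 gave 15, 38, 68, 69, 15 and 41 calls, and leaving out CR replicates 1 to 4 gave 27, 26, 15 and 73. Among the genes named here, Hspa5, Hist2h3c1, Nr1d1, Prkab1, Zfp207, Brca2 and 1700102P08Rik were called in all 12 of these fits. For every other called gene the number of these fits that called it is given beside its value.

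The libraries also differed in their levels of marker RNA of CA1 and neighboring tissue. The region score, the mean log2 level of 17 neocortex and subiculum markers minus that of 10 CA1 pyramidal neuron markers, ran from -0.505 to 1.326 in AL and from -1.983 to 0.35 in CR mice at 15 months. Markers of CA1 were present in every library, with a summed level of 211.9 to 335.5 FPKM in AL and 137.3 to 479.4 in CR mice, while the neocortex and subiculum markers summed to 366.0 to 420.9 and 286.6 to 434.0 FPKM. At 5 months the region score ran from -2.332 to -1.0 in AL and from -2.309 to -1.769 in CR mice. The AL libraries at 15 months therefore had, on this score, relatively more neocortical and less CA1 marker RNA than the CR libraries, with overlap between the groups. In bulk tissue, fewer cells of a type and less RNA per cell cannot be told apart. With the region score as a covariate 6 genes were called, and with the dentate granule cell score as a covariate, a setting chosen after seeing the data, 15 were called. With the region score as a covariate Hist2h3c1, Nr1d1, Prkab1 and Zfp207 were still called, and Hspa5 had a log2 difference of 0.71 (adjusted p = 0.0637).

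**Figure D2:**
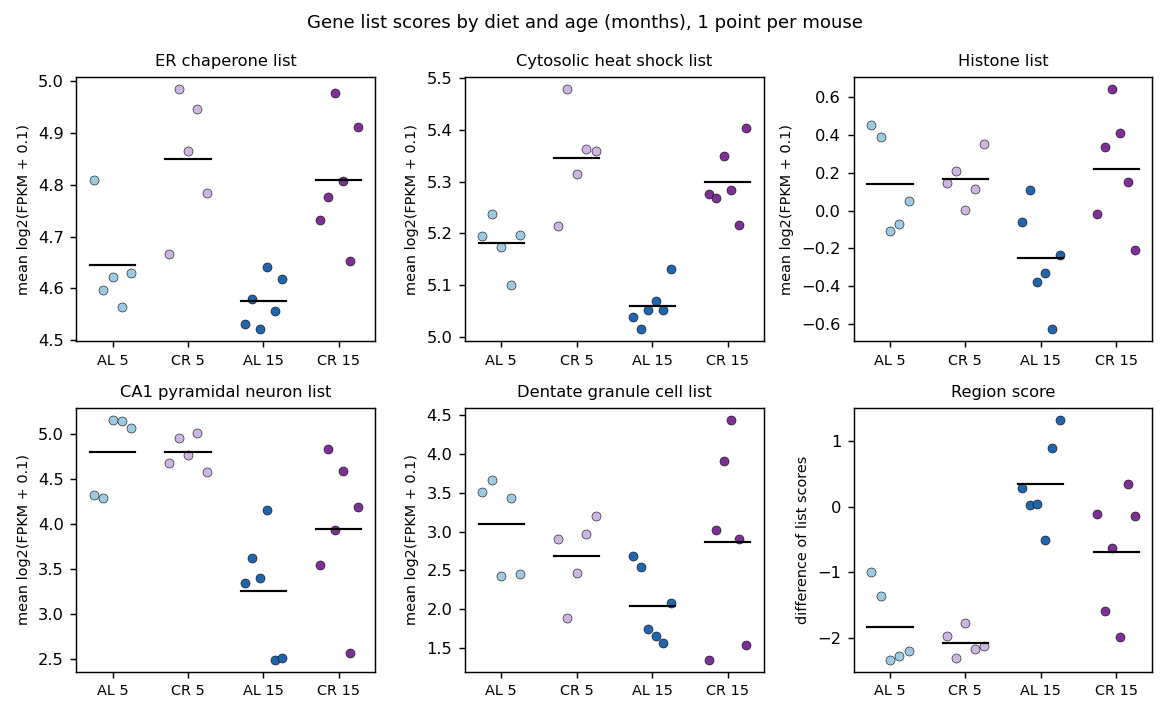
Score of 5 gene lists (mean log2(FPKM + 0.1) of the list's genes) and the region score (neocortex and subiculum minus CA1 list score) in every mouse, by diet and age in months; horizontal lines are group means. The ER chaperone and heat shock scores of the 6 CR mice at 15 months all lie above those of the 6 AL mice, while the CA1, dentate and region scores overlap.

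ER chaperone genes were the family with the most calls. Of the 26 genes of the ER chaperone and unfolded protein response list, 8 were called, all higher in CR mice (30.8%). Of all genes tested, 0.33% were called higher. In the list 22 of 26 lay above 0, and the list median was 0.22 against -0.00 over all genes tested. The 8 were Hspa5, Sdf2l1, Pdia4, Manf, Pdia6, Calr, Pdia3 and Dnajb11. The score of the list was 4.522 to 4.641 in the AL and 4.653 to 4.976 in the CR libraries. Of the 5 called genes with the highest mean FPKM, small RNA entries left out, 4 belonged to this list (Calr, Hspa5, Pdia3 and Pdia6).

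Hspa5 (chromosome 2, 34771970 to 34777547, plus strand, GRCm38), which encodes BiP, the principal Hsp70 chaperone of the ER lumen, had a lowest, median and highest FPKM of 82.9, 101 and 113 in AL and 143, 155 and 186 in CR mice. The ranges were apart, and every CR mouse exceeded every AL mouse. Its mean was 100 ± 10.9 FPKM in AL and 159 ± 16.9 in CR mice (SD, n = 6 each), a log2 difference of 0.66 ± 0.11 (SE, limma adjusted p = 0.0137). The exact two-sided permutation test over all divisions of the 12 libraries gave p = 0.00216, the smallest it can give. Any gene whose groups do not overlap gives this p, so it adds nothing to the absence of overlap.

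The largest log2 difference of the family was that of Sdf2l1 (chromosome 16, 17130138 to 17132383, minus strand), a component of ER chaperone complexes, with 6.77, 8.59 and 9.59 FPKM (lowest, median, highest) in AL and 9.56, 16.6 and 23.2 in CR mice. Only the lowest CR mouse reached into the AL range. Its log2 difference was 0.96 ± 0.19 (limma adjusted p = 0.0342), and it was called in 4 of the 12 fits that left out a library.

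Pdia4, Pdia6 and Pdia3 encode protein disulfide isomerases, the enzymes that form and reshuffle disulfide bonds in new secretory proteins. Pdia4 ranged from 15.4 to 18.6 FPKM (median 17.5) in AL and from 21.8 to 31.3 (median 25.3) in CR mice, a log2 difference of 0.57 ± 0.12 (limma adjusted p = 0.0342, 5 of 12 fits). Pdia6 ranged from 50.1 to 60.6 FPKM (median 56.8) in AL and from 66.5 to 94.2 (median 76.5) in CR mice, a difference of 0.48 ± 0.11 (adjusted p = 0.0399, 3 of 12). The groups did not overlap in either gene, nor in Pdia3, which went from a mean of 72.2 ± 6.21 to 94.1 ± 9.61 FPKM (0.38 ± 0.08, adjusted p = 0.0396, 3 of 12).

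Calr, the gene of the calcium-binding lectin chaperone calreticulin, ranged from 133 to 174 FPKM (median 155) in AL and from 169 to 256 (median 214) in CR mice. A single CR mouse lay within the AL range. The log2 difference was 0.44 ± 0.10 (limma adjusted p = 0.0418, 4 of 12 fits). Manf, an ER-resident secreted neurotrophic factor, ranged from 17.3 to 19.5 FPKM in AL and from 22.97 to 36.4 in CR mice (0.56 ± 0.10, adjusted p = 0.0272, 9 of 12), and Dnajb11, the ER Hsp40 that works with BiP, from 25.8 to 30.2 and from 31.7 to 38.3 FPKM (0.28 ± 0.06, adjusted p = 0.0475, 2 of 12). Of the 48 called genes whose values are given here, 17 overlap another annotated gene, and the library kit does not mark strand, so their values are uncertain to that extent. They are Manf, Pdia3, Pdia6, Dnajb11, Dnaja4, Fkbp14, Uggt2, Hist1h2be, Hist2h3c1, Nr1d1, Gm129, Bcl6, Prkab1, Lrrtm1, Zfp783, Brca2 and 1700102P08Rik.

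Members of the list that were not called included other chaperones. Hyou1 (0.32, adjusted p = 0.0602), Dnajc3 (0.30, adjusted p = 0.0910) and Hsp90b1 (0.36, adjusted p = 0.104), all ER chaperones or co-chaperones, lay above 0, and the CR and AL libraries did not overlap for Hyou1 and Dnajc3. The transcription factors of the response differed less: Xbp1 by 0.22 (adjusted p = 0.323), Atf4 by 0.08 (0.643) and Ddit3, which encodes the pro-apoptotic factor CHOP, by 0.12 (0.629). Canx, the membrane-bound partner of calreticulin, differed by 0.10 (adjusted p = 0.392), Herpud1 by 0.03 (0.874) and the Atf4 target Trib3 by -0.33 (0.515).

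The count of calls in this list was 12 when CR replicate 0 was left out, 8 for CR replicate 5, 6 for CR replicate 4 and 5 for AL replicate 3. It was 3 for AL replicate 5 and for CR replicate 1, 2 for AL replicates 1 and 2 and CR replicate 2, and 1 for AL replicates 0 and 4 and CR replicate 3. The list median stayed between 0.20 and 0.27 in these fits. It was 0.22 with the region score as a covariate, a fit in which no member was called. At 5 months, in mice that share no library with this comparison, the list median was 0.17, 24 of 26 genes lay above 0 and 0 were called, with 13 at an unadjusted p under 0.05 and higher in CR mice (2.49% of all genes tested), as at 15 months (8.26%). Hspa5 differed by 0.59 at 5 months and Pdia4 by 0.57, and in 0 of the 26 genes did the CR effect differ between the ages at an unadjusted p under 0.05 (7.66% of all genes). From 5 to 15 months in AL mice, a comparison that shares the AL libraries, Hspa5 differed by -0.23 (adjusted p = 0.160), where 9.97% of all genes were called lower and 10.7% higher, and Sdf2l1 by -0.62 (adjusted p = 0.0354).

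**Figure D3:**
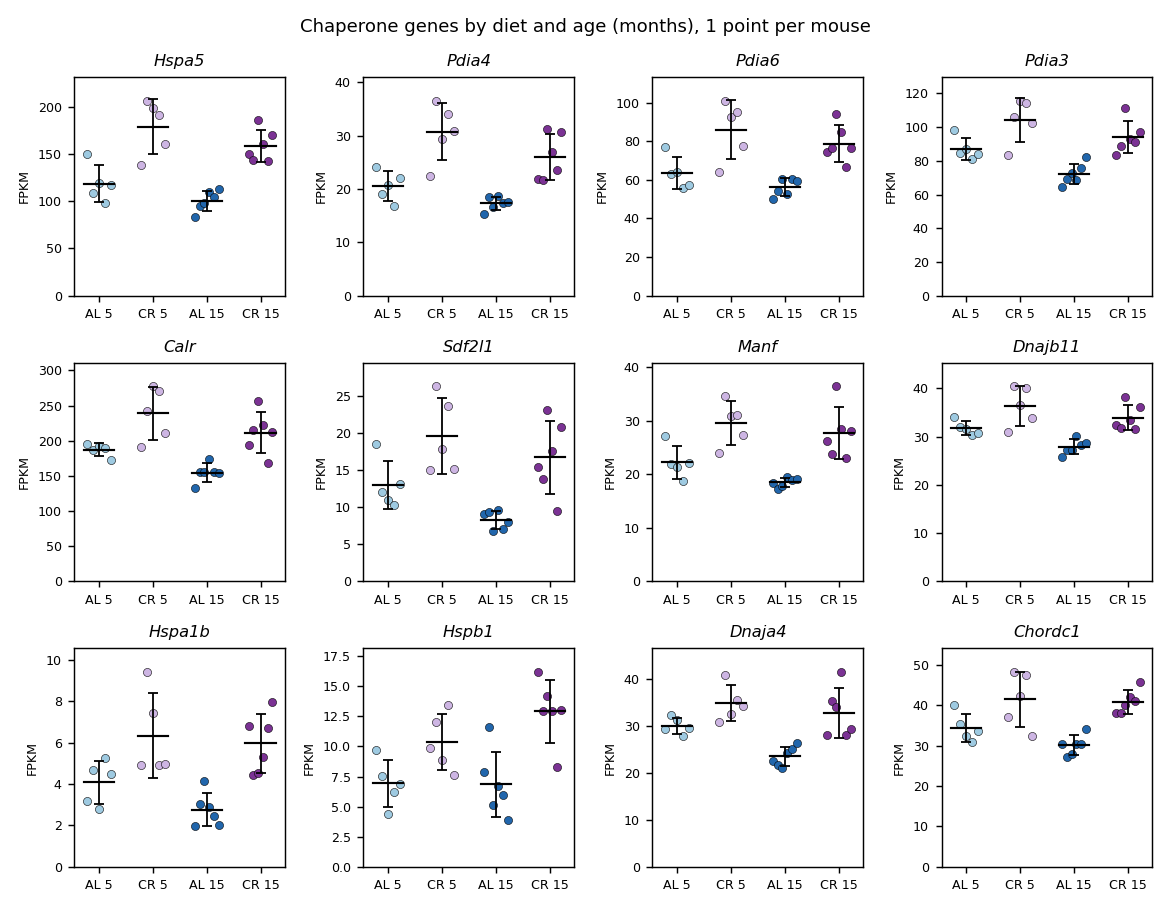
FPKM of the 8 called ER chaperone genes and the 4 called cytosolic heat shock genes in every mouse, by diet and age in months; horizontal lines are means and bars SD (n = 5 at 5 months, 6 at 15 months). At 15 months the CR points of Hspa5 (143 to 186 FPKM) lie above all AL points (83 to 113).

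The promoters of several of these genes hold the ER stress response element (ERSE), the sequence through which the factors ATF6 and NF-Y are known to act, and they are shown because 8 members of the list were called in the same direction. The element was searched as CCAAT and CCACG with any 9 bases between them, on both strands in the 300 bases from 250 before to 50 after the RefSeq start (GRCm38.p6). Of the 23 list genes with a RefSeq promoter entry, 8 held a match: Calr, Hspa5 and Pdia6 among 7 called members, and Canx, Creld2, Dnajc3, Hsp90b1 and Syvn1 among 16 members not called. Over all 27025 genes with an entry, 37 held one (0.137%). A stretch of 150 bases is given for each gene, 5′ to 3′ along the gene's strand, with the letters of the element in capitals. For Hspa5 and Pdia6 it covers the 150 bases directly before the start, for Calr those from 200 to 51 bases before it, and for Hsp90b1 those from 230 to 81 bases before it.

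Hspa5 (chr2:34771940-34772089, plus strand): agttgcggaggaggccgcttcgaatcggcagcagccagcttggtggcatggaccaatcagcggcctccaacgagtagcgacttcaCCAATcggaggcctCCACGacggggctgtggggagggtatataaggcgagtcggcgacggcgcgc
Calr (chr8:84846982-84847131, minus strand): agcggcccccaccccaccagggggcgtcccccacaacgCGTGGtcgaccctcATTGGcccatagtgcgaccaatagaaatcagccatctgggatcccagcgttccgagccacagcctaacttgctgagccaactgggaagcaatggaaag
Pdia6 (chr12:17266439-17266588, plus strand): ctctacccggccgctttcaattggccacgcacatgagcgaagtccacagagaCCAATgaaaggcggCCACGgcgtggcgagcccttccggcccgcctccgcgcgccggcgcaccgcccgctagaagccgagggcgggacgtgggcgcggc
Hsp90b1 (chr10:86705525-86705674, minus strand): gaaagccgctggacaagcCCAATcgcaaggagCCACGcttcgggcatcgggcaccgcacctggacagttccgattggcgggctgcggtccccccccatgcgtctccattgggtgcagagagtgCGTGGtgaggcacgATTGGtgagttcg

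In Hspa5 the element began 65 bases before the start, in Pdia6 98 bases before it, and in Calr it lay on the opposite strand. Hsp90b1, printed as a member that was not called, held 2 matches. A match is a description of the sequence only. Pdia4, also called, held none in this window. The shorter element ERSE-II, searched as ATTGG and CCACG with any 1 base between them, was present for Dnajb11 and Herpud1 and in 12 genes of all (0.0444%). Among the 97 called genes with a RefSeq promoter entry, ERSE was found in 4 (Calr, Calr4, Hspa5 and Pdia6).

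Several called genes outside the list encode proteins of the same compartment, and they were picked out after their values were seen. Mlec, an ER lectin, rose by 0.33 (adjusted p = 0.0418, 4 of 12 fits), P4ha1, a collagen prolyl hydroxylase subunit, by 0.53 (adjusted p = 0.0281, 6 of 12) and Fkbp14, an ER prolyl isomerase, by 0.54 (adjusted p = 0.0342, 5 of 12). Ormdl3, a regulator of sphingolipid synthesis in the ER membrane, rose by 0.30 (adjusted p = 0.0342, 5 of 12). Uggt2, a homolog of the glycoprotein folding sensor, moved the other way and fell by 0.42 (adjusted p = 0.0399, 4 of 12). Nfya, a subunit of the CCAAT-binding factor NF-Y, ranged from 6.41 to 7.81 FPKM in AL and from 9.25 to 10.9 in CR mice, a log2 difference of 0.45 ± 0.08 (adjusted p = 0.0184, 10 of 12).

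The list of cytosolic heat shock genes leaned toward CR mice in the same way. Of its 32 genes, 4 were called, all higher (12.5%, against 0.33% of all genes tested). In the list 28 lay above 0 and the median was 0.23. At an unadjusted p under 0.05, 18 were higher and 0 lower, where 8.26% of all genes tested were higher. The score of the list ran from 5.015 to 5.131 in the AL and from 5.217 to 5.403 in the CR libraries, with no overlap.

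Hspa1b (chromosome 17, 34956436 to 34959238, minus strand), a stress-inducible cytosolic Hsp70, had 1.99, 2.66 and 4.15 FPKM (lowest, median, highest) in AL and 4.43, 6.02 and 7.98 in CR mice, so that the groups were apart by a narrow gap. Its log2 difference was 1.10 ± 0.21 (limma adjusted p = 0.0281, 8 of 12 fits). Its near-identical neighbor Hspa1a, with which reads can be shared, ranged from 2.09 to 3.11 and from 2.80 to 4.08 FPKM (0.39, adjusted p = 0.135). The assignment of reads between the 2 copies is uncertain.

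Hspb1, the small heat shock protein Hsp27, ranged from 3.91 to 11.6 FPKM (median 6.33) in AL and from 8.28 to 16.2 (median 13.0) in CR mice, with overlap (0.96 ± 0.22, limma adjusted p = 0.0497, 4 of 12 fits). The Hsp40 co-chaperone Dnaja4 ranged from 21.1 to 26.3 and from 27.98 to 41.5 FPKM without overlap (0.46 ± 0.09, adjusted p = 0.0285, 6 of 12), and the Hsp90 co-chaperone Chordc1 from 27.1 to 34.2 and from 38.0 to 45.8 (0.44 ± 0.09, adjusted p = 0.0342, 5 of 12). The abundant constitutive members were not called: Hspa8 differed by 0.26 (604 and 723 FPKM, adjusted p = 0.256) and Hsp90aa1 by 0.10 (341 and 364 FPKM, adjusted p = 0.649). Hsph1 differed by 0.35 (adjusted p = 0.0802) and the mitochondrial co-chaperonin Hspe1 by 0.34 (adjusted p = 0.0731).

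No heat shock gene was called without AL replicate 0, AL replicate 4 or CR replicate 3, and 6 were called without CR replicate 0 or CR replicate 5. The list median stayed between 0.19 and 0.28 over the 12 fits. At 5 months it was 0.13, with 27 of 32 genes above 0 and 7 higher at an unadjusted p under 0.05 (2.49% of all genes). The CR effect differed between the ages at that level in 0 genes of the list (7.66% of all genes). The heat shock element was searched as 3 alternating units of GAA and TTC, starting with either and with any 2 bases between units, in the same promoter windows on both strands. It was found for 5 of 27 list genes with an entry and for 0.662% of all genes. Of the 4 called members 1 held it (Chordc1), and of the 23 not called 4 did (Dnajb6, Hspd1, Hspe1 and Hsph1).

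Replication-dependent histone genes lay above 0 in 30 of 32 tested members, with a median log2 difference of 0.53. Of the 32, 2 were called, both higher (6.25%, against 0.33% of all genes tested). The genes of this list encode the core histones made in S phase, in many nearly identical copies. Their mRNA mostly lacks a poly(A) tail. Their FPKM in an mRNA library and the share of reads given to each copy are therefore uncertain. Hist2h3c1 (chromosome 3, 96246685 to 96248509, plus strand), an H3 gene, had 1.46, 1.49 and 2.72 FPKM (lowest, median, highest) in AL and 3.30, 4.31 and 5.35 in CR mice. The groups did not overlap, and the log2 difference of 1.25 ± 0.17 (limma adjusted p = 0.00263) was called in all 12 fits. Hist1h2be, an H2B gene, ranged from 0.512 to 1.31 and from 1.14 to 3.36 FPKM (1.23 ± 0.27, adjusted p = 0.0399, 3 of 12).

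Among the histone genes not called, Hist1h2bc went from 18.6 ± 1.53 to 29.8 ± 9.93 FPKM (0.62, adjusted p = 0.0544), Hist3h2a differed by 0.53 (adjusted p = 0.0653) and Hist2h3c2, a copy of the called H3 gene, by 0.88 (adjusted p = 0.0544). Hist1h4d, at under 0.4 FPKM on average, was one of the 2 below 0 (-1.46, adjusted p = 0.125). The list score overlapped between the groups, at -0.625 to 0.109 in AL and -0.210 to 0.642 in CR libraries. At 5 months the list median was 0.01 with 16 of 32 above 0, and for 8 genes the CR effect differed between the ages at an unadjusted p under 0.05, where 7.66% of all genes did. For Hist2h3c1 the CR effect was 0.23 at 5 months, and the unadjusted limma p of the difference between the ages was 0.00071 (adjusted p over all genes 0.587). That contrast contains the 15-month difference by which Hist2h3c1 was called, and 60.3% of the called genes had such a p under 0.05. In AL mice 7 of the 32 histone genes were called lower at 15 than at 5 months, where 9.97% of all genes were. The AL libraries at 15 months enter both comparisons, so a fall with age is favored in genes with a low AL level at 15 months.

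**Figure D4:**
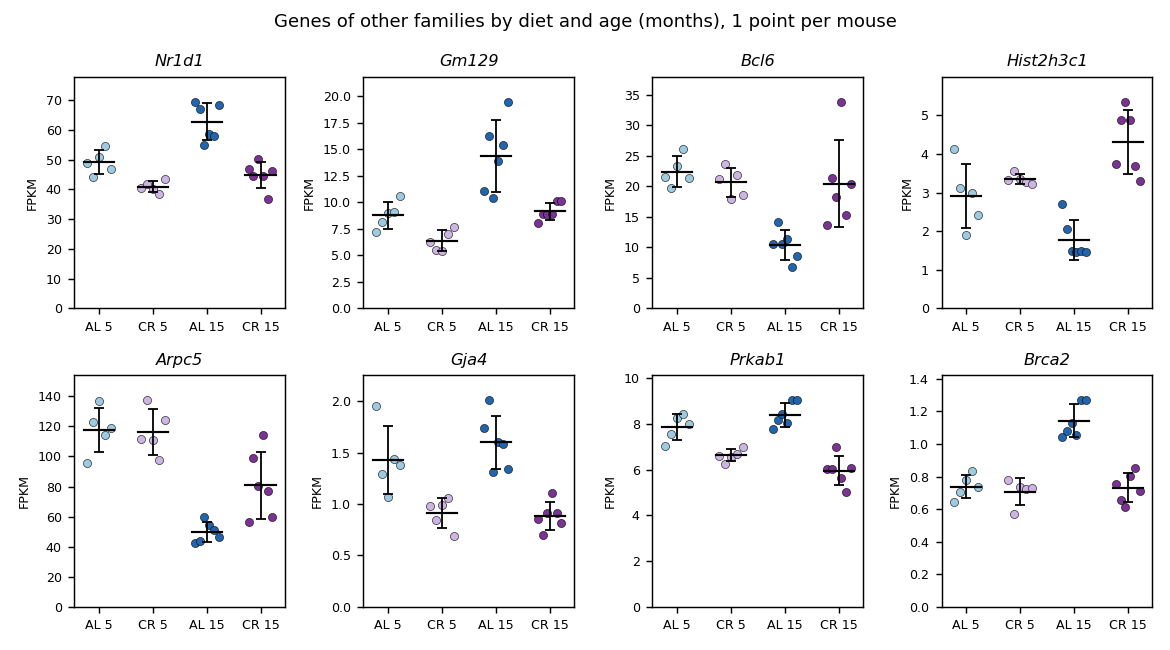
FPKM of 8 called genes of other families in every mouse, by diet and age in months; horizontal lines are means and bars SD (n = 5 at 5 months, 6 at 15 months). At 15 months the CR points of Nr1d1, Gm129, Gja4, Prkab1 and Brca2 lie below all AL points and those of Hist2h3c1 above them.

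Clock and glucocorticoid genes each contributed calls. Of 18 circadian clock genes, 2 were called, both lower in CR mice (11.1%, against 0.742% of all genes tested called in either direction). Nr1d1 (chromosome 11, 98767932 to 98775333, minus strand), the heme-binding repressor REV-ERB alpha, ranged from 54.8 to 69.3 FPKM (median 62.8) in AL and from 36.7 to 50.03 (median 45.4) in CR mice, a log2 difference of -0.48 ± 0.07 (limma adjusted p = 0.00541). It was called in all 12 fits and with the region score as a covariate, and it overlaps Thra on the other strand. Gm129, also known as Ciart, a repressor of the CLOCK and BMAL1 pair, ranged from 10.4 to 19.5 and from 8.01 to 10.1 FPKM without overlap (-0.62 ± 0.13, adjusted p = 0.0396, 4 of 12).

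The other clock genes named did not pass. The output regulator Dbp differed by -0.36 (36.1 and 28.2 FPKM, adjusted p = 0.121) and the retinoid-related activator Rora by -0.52 (adjusted p = 0.170), while Tef lay higher by 0.25 (adjusted p = 0.130), Per1 lower by -0.22 (0.498) and Arntl, which encodes BMAL1, differed by 0.04 (0.885). Of the 18 genes, 8 lay above 0. Nr1d1 differed by -0.26 and Gm129 by -0.46 at 5 months, and in 0 clock genes did the CR effect differ between the ages at an unadjusted p under 0.05.

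Of 25 glucocorticoid target genes, 1 was called (4%, against 0.742% of all genes tested). At that share, a list of this size can hold 1 call without differing from all genes. Bcl6, a transcriptional repressor induced by glucocorticoids, ranged from 6.87 to 14.1 FPKM (median 10.6) in AL and from 13.7 to 33.8 (median 19.3) in CR mice, with a single pair of mice overlapping (0.95 ± 0.18, limma adjusted p = 0.0272, 9 of 12 fits). The mineralocorticoid receptor gene Nr3c2 went from 12.5 ± 3.55 to 25.4 ± 11.2 FPKM (0.93, adjusted p = 0.0804) and Fkbp5, the classic feedback target, from 13.7 ± 3.37 to 20.0 ± 5.21 (0.53, adjusted p = 0.121). Cebpd differed by 1.03 (adjusted p = 0.202), Cdkn1a by -0.60 (0.216) and the glucocorticoid receptor gene Nr3c1 by 0.03 (0.942). The list median was 0.09, with 15 of 25 above 0, but it was -0.03 without CR replicate 5, between 0.00 and 0.04 without AL replicate 2, AL replicate 4, CR replicate 1 or CR replicate 3, up to 0.18 without AL replicate 3 or CR replicate 4, and -0.10 with 11 of 25 above 0 with the region score as a covariate. At 5 months Bcl6 differed by -0.12, and the unadjusted limma p of the difference between the ages was 0.00060. That contrast contains the 15-month difference by which Bcl6 was called, and 60.3% of the called genes had such a p under 0.05.

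Cytoskeletal and cell-surface families had single calls. Over all genes tested 0.742% were called. Among 69 lists, some can hold 1 call at that share without differing from all genes. In the list of Arp2/3 complex and actin regulator genes, 1 of 21 was called (4.76%), 16 lay above 0 and the median was 0.17. Arpc5, a subunit of the Arp2/3 complex that nucleates branched actin, ranged from 42.3 to 59.5 FPKM (median 48.8) in AL and from 56.5 to 114 (median 78.7) in CR mice (0.67 ± 0.15, limma adjusted p = 0.0396, 3 of 12 fits). Its partners Arpc2 (0.54, adjusted p = 0.0796), Actr2 (0.35, 0.0709) and Actr3 (0.37, 0.155) lay higher without passing, and Cit, the citron kinase gene, lower (-0.71, 0.170). At 5 months 4 of the 21 lay above 0, and for 9 genes the CR effect differed between the ages at an unadjusted p under 0.05 (7.66% of all genes). In AL mice Arpc5 was lower at 15 than at 5 months (-1.25, adjusted p = 0.00011), as were 14 genes of this list in all (9.97% of all genes). That comparison shares the AL libraries at 15 months.

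Gja4 (chromosome 4, 127311421 to 127314039, minus strand), the gap junction protein connexin 37 of arterial endothelium, ranged from 1.31 to 2.01 FPKM (median 1.60) in AL and from 0.695 to 1.11 (median 0.884) in CR mice without overlap (-0.79 ± 0.14, limma adjusted p = 0.0198, 10 of 12 fits). It was the only call among 15 gap junction genes (6.67%) and among 21 endothelial and mural cell genes (4.76%), against 0.742% of all genes tested. The endothelial and mural median was -0.15. That median was -0.01 when AL replicate 1 was left out, -0.24 for AL replicate 5 and -0.10 for CR replicate 1. Of these 21, 17 lay below 0, including the receptor gene Tek (-0.34, adjusted p = 0.183), while the tight junction gene Cldn5 differed by 0.35 (adjusted p = 0.377). At 5 months Gja4 differed by -0.58 and 8 of the 21 endothelial and mural genes were lower at an unadjusted p under 0.05 (2.16% of all genes).

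Prkab1, the beta 1 regulatory subunit of the energy sensor AMPK, ranged from 7.77 to 9.04 FPKM (median 8.31) in AL and from 5.01 to 6.98 (median 6.03) in CR mice. The groups did not overlap, and the log2 difference of -0.49 ± 0.07 (limma adjusted p = 0.00263) was called in all 12 fits and with the region score as a covariate. It was the only call among 21 AMPK and mTOR pathway genes (4.76%, against 0.742% of all genes tested). The alternative beta subunit gene Prkab2 differed by 0.11 (adjusted p = 0.636), the catalytic subunit gene Prkaa1 by 0.06 (0.721) and the translation repressor gene Eif4ebp2 by 0.28 (0.103). At 5 months Prkab1 differed by -0.24.

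Other lists held 1 call each, where 0.742% of all genes tested were called. They were 13 calpain, 22 MAP kinase phosphatase, 4 proline-rich transmembrane, 24 tumor necrosis factor superfamily and 27 postsynaptic scaffold and adhesion genes. With quantile normalization these lists held 0 calls, and with the region score as a covariate also 0. Capn6, a calpain-family protein without protease activity, ranged from 1.28 to 2.49 FPKM in AL and from 0.388 to 1.11 in CR mice (-1.21 ± 0.25, limma adjusted p = 0.0388, 4 of 12 fits). Dusp9, a MAP kinase phosphatase, fell by 0.92 (0.686 and 0.313 FPKM, adjusted p = 0.0473, 2 of 12), Prrt4, a proline-rich transmembrane protein, by 0.91 (1.91 and 0.979 FPKM, adjusted p = 0.0399, 2 of 12) and Tnfrsf11a, the receptor RANK, by 0.69 (1.36 and 0.821 FPKM, adjusted p = 0.0399, 4 of 12). In AL mice all 4 were called higher at 15 than at 5 months, by 1.44, 1.45, 1.13 and 1.56, where 10.7% of all genes were. That comparison shares the AL libraries at 15 months, so a rise is favored in genes picked for a high AL level. Lrrtm1, a postsynaptic adhesion protein, rose by 0.51 (35.7 and 50.4 FPKM, adjusted p = 0.0483, 2 of 12) and overlaps Ctnna2.

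Of 341 C2H2 zinc finger genes named Zfp, 4 were called (1.17%, against 0.742% of all genes tested). Zfp207, a microtubule-associated protein needed for chromosome alignment, rose from 49.6 ± 1.48 to 64.7 ± 5.67 FPKM without overlap (0.38 ± 0.05, limma adjusted p = 0.00263) and was called in all 12 fits and with the region score as a covariate. Zfp275 fell by 0.46 (adjusted p = 0.0422, 3 of 12), Zfp641 by 0.41 (0.0281, 7 of 12) and Zfp783 by 0.57 (0.0394, 3 of 12).

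Other called genes belonged to no list. Brca2, the homologous recombination mediator, fell from 1.14 ± 0.102 to 0.732 ± 0.0896 FPKM (-0.58 ± 0.10, limma adjusted p = 0.0137, 12 of 12 fits), a level that at 5 months was 0.739 in AL and 0.707 in CR mice. 1700102P08Rik, a transcript of unstated function that overlaps Ccdc36, rose from 0.769 ± 0.110 to 1.63 ± 0.313 FPKM (0.99 ± 0.14, adjusted p = 0.0037, 12 of 12). Srsf5, a serine and arginine-rich splicing factor, was also among the 5 most abundant called genes apart from small RNA entries. It fell from 148 ± 9.15 to 112 ± 7.32 FPKM (-0.40 ± 0.08, limma adjusted p = 0.0281, 8 of 12).

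Depdc7 rose by 1.01 (adjusted p = 0.0377, 4 of 12 fits), the leucine-rich repeat gene Lrrn1 by 0.59 (0.0342, 5 of 12), Gfod1 by 0.47 (0.0377, 4 of 12) and the delta tubulin gene Tubd1 by 0.51 (0.0394, 4 of 12). Trpm4, a calcium-activated cation channel, fell by 0.57 (adjusted p = 0.0272, 8 of 12), as did the sialomucin gene Podxl (-0.58, 0.0421, 4 of 12), the phosphatase regulator Ppp1r26 (-0.55, 0.0418, 2 of 12), the Polycomb gene Pcgf2 (-0.55, 0.0430, 2 of 12), Dennd6b (-0.53, 0.0473, 2 of 12) and A230073K19Rik (-0.60, 0.0483, 2 of 12). Depdc7 had the opposite sign at 5 months (-0.60), and the unadjusted limma p of the difference between the ages was 4.4e-05. That contrast contains the 15-month difference by which the genes were called. Of the 126 called genes, 76 (60.3%) had an unadjusted p under 0.05 in it, so such a p in a called gene is favored by the choice of genes. No gene passed the adjusted threshold for a difference of the CR effect between the ages (limma, 1301 genes, 7.66%, at an unadjusted p under 0.05), and at 5 months CR and AL differed in 0 called genes (789 at an unadjusted p under 0.05, 4.65%).

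Large families of housekeeping genes leaned one way without a call, where 0.742% of all genes tested were called. Of 83 cytosolic ribosomal protein genes, 80 lay above 0 with a median of 0.17. The list also holds the Rpl7-like gene Rpl7l1, which was at 0.23 (limma adjusted p = 0.201). At an unadjusted p under 0.05, 2 of the 83 were higher (8.26% of all genes). Respiratory chain subunit genes lay above 0 in 78 of 84 (median 0.11), proteasome subunit genes in 35 of 39 (median 0.10, Psmb5 0.24 with adjusted p = 0.181) and mitochondrial ribosomal protein genes in 58 of 75 (median 0.07). At 5 months the numbers above 0 were 31 of 83, 51 of 84, 19 of 39 and 31 of 75. Without CR replicate 2 the 4 medians were 0.05, 0.05, 0.06 and 0.01. The cytosolic ribosomal median was 0.08 with the region score as a covariate, and the respiratory chain median was 0.06 with quantile normalization. Genes of one complex are not independent of each other.

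Other lists lay mostly below 0, again with 0 calls. Collagen genes lay below 0 in 34 of 42 (median -0.28), with Col24a1 at -1.52 (adjusted p = 0.131), Col26a1 at -1.09 (0.0782) and Col5a1 at -0.95 (0.202). Cadherin and protocadherin genes lay below 0 in 66 of 92 (median -0.11, Pcdh11x -1.19 with adjusted p = 0.0564 and Pcdh7 -0.58 with 0.129). Potassium channel genes did so in 60 of 85 (median -0.13, Kcnh4 -1.16 with adjusted p = 0.0547), although Kcnab1 was at 0.48 (0.187), and presynaptic release genes in 34 of 44 (median -0.11, Rims3 -1.06 with adjusted p = 0.0731 and Stx1a -0.57 with 0.153). Cholesterol and fatty acid synthesis genes lay below 0 in 20 of 24 (median -0.17, Dhcr7 -0.29 with adjusted p = 0.177 and Insig1 -0.37 with 0.276). At 5 months 22 of 42 collagen, 49 of 92 cadherin, 34 of 85 potassium channel, 27 of 44 presynaptic and 19 of 24 cholesterol synthesis genes lay above 0. With the region score as a covariate the presynaptic and cholesterol synthesis medians were each -0.02, and the collagen median was -0.29. With quantile normalization the cadherin median was -0.03 with 43 of 92 above 0, the potassium channel median -0.05 and the collagen median -0.18. Leaving out AL replicate 1 gave a collagen median of -0.16, leaving out CR replicate 2 a potassium channel median of -0.09 and a presynaptic median of -0.07, and leaving out CR replicate 3 a presynaptic median of -0.07 and a cholesterol synthesis median of -0.08. The postsynaptic scaffold and adhesion list, which holds Lrrtm1, lay above 0 in 18 of 27 (median 0.07).

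**Figure D5:**
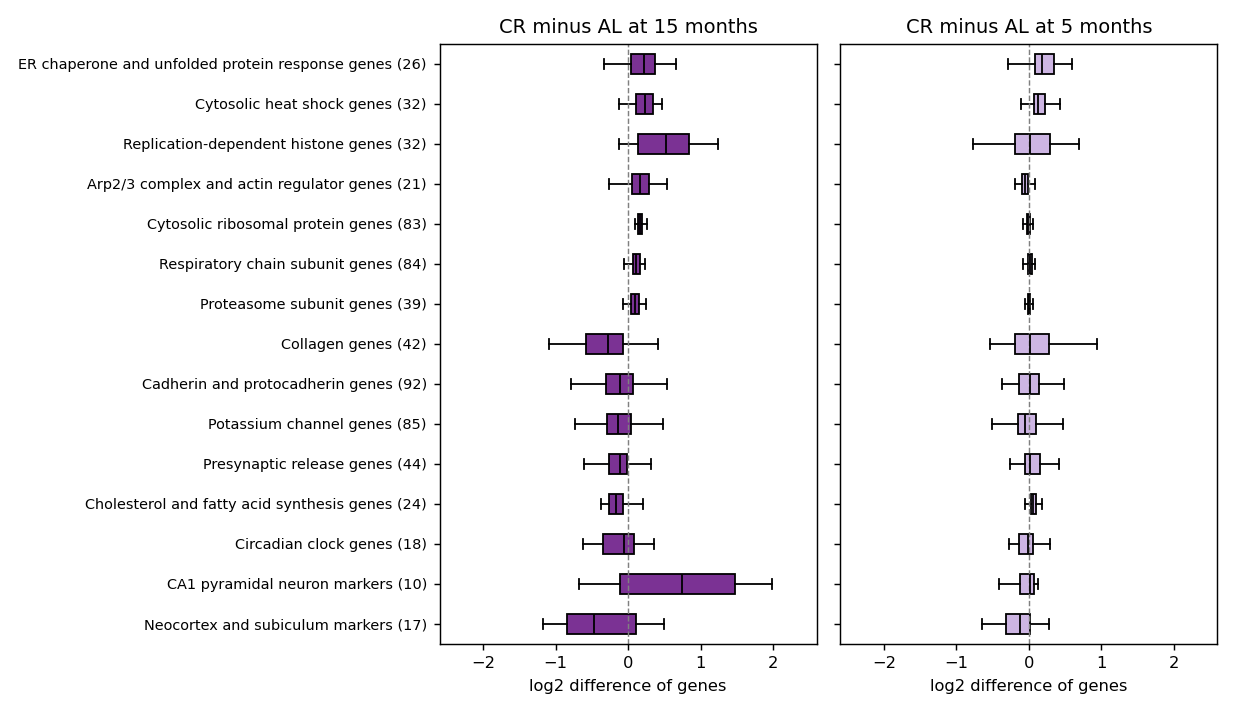
Box plots of the log2 difference (CR minus AL) of the genes in 15 lists at 15 months (left) and 5 months (right); boxes span the quartiles with the median as a line, whiskers reach the last gene within 1.5 box lengths, genes beyond them are not drawn, and the number of genes is in parentheses. ER chaperone and heat shock medians lie above 0 at both ages, whereas the histone, ribosomal protein and collagen medians are 0.53, 0.17 and -0.28 at 15 months and within 0.02 of 0 at 5 months.

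Lists of receptor and calcium genes of synaptic transmission held no call, where 0.742% of all genes tested were called. At that share, lists of this size can hold none without differing from all genes. None of 18 ionotropic and 7 metabotropic glutamate, 16 GABA-A, 12 serotonin, 16 acetylcholine or 18 dopamine, adrenergic, histamine and opioid receptor genes was called by limma. Each of these lists had 1 or 2 genes higher and 1 to 4 lower at an unadjusted p under 0.05 (8.26% and 8.83% of all genes). Gria4, an AMPA receptor subunit gene, differed by -0.51 (40.9 and 29.9 FPKM, adjusted p = 0.190), the serotonin receptor gene Htr4 by 1.17 (0.176) and the dopamine receptor gene Drd5 by 1.76 (1.22 ± 0.874 and 5.15 ± 3.55 FPKM, 0.0897). Of 29 calcium store, pump and buffer genes, 6 were higher and 3 lower at that level, against the same 8.26% and 8.83% of all genes. Orai2 was at 0.77 (adjusted p = 0.150), Stim2 at 0.58 (0.187) and the sodium-calcium exchanger gene Slc8a3 at -0.64 (0.0709).

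Families of neuronal identity and wiring were split between directions and held no call, where 0.742% of all genes tested were called. Of 34 forebrain neuron transcription factor genes, 10 were higher and 7 lower at an unadjusted p under 0.05 (8.26% and 8.83% of all genes), with Emx2 at 0.75 (adjusted p = 0.0602), Lmo3 at 0.66 (0.0545) and Bcl11b at 0.74 (0.125), and Neurod4 at -0.89 (0.0599) and Mef2c at -0.67 (0.209). Of 71 axon guidance genes, 7 were higher and 9 lower at that level. Among them the ephrin receptor genes Epha8 and Epha7 lay on opposite sides (-1.19, adjusted p = 0.0628, and 0.95, 0.123), and the ligand gene Efna5 (-1.38, 0.102) and the semaphorin receptor gene Plxnd1 (-1.08, 0.0599) lay below 0. Outside these families, the death receptor gene Tnfrsf25 differed by 1.22 (limma adjusted p = 0.0599). It belongs to the tumor necrosis factor superfamily list, which held the call of Tnfrsf11a.

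MicroRNA gene entries are not informative of mature microRNAs in these mRNA libraries and are given as a family. Of 304 tested, 3 were called, all lower in CR mice (0.987%), and 116 lay above 0. The 3 were listed at 0 in every CR library and in 1 or 2 of the 6 AL libraries, so no fold is given. The number of entries above 0 had a median of 152.5 and a highest value of 166 in AL mice, and of 130 and 141 in CR mice.

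Of the cell type marker lists, the endothelial and mural cell list held a call, Gja4, and the others held none. Over all genes tested 0.742% were called. None of 10 CA1 pyramidal neuron markers was called, 7 lay above 0 and the median was 0.74. The CA1 markers Spink8 (6.21 ± 5.29 and 22.2 ± 20.4 FPKM, log2 difference 1.67, limma adjusted p = 0.180), Lefty1 (1.99, 0.170) and Ndst4 (1.82, 0.0773) were higher on average in CR mice with wide overlap, whereas Wfs1 differed by -0.19 (0.781). Spink8, Lefty1 and Ndst4 were called lower in AL mice at 15 than at 5 months (9.97% of all genes), with differences of -3.81, -4.27 and -2.30. That comparison shares the AL libraries at 15 months. The neocortex and subiculum list had a median of -0.47 with 11 of 17 genes below 0, Cux2 at -0.93 (adjusted p = 0.102), Cux1 at -0.53 (0.113) and Lamp5 at -0.62 (0.182).

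The dentate granule cell list had a median of 0.70 with 9 of 10 genes above 0, Lct at 2.12 (0.762 ± 0.747 and 7.18 ± 8.02 FPKM, adjusted p = 0.190), and its score ran from 1.568 to 2.681 in AL and from 1.345 to 4.44 in CR libraries. Erythrocyte markers had a median of 1.64, with the beta globin gene Beta-s at 5.46 ± 6.83 FPKM in AL and 16.6 ± 9.13 in CR mice (2.25, adjusted p = 0.174). Without CR replicate 2 or CR replicate 3 the dentate median was 0.43 and 0.38. The medians of the myelin and oligodendrocyte, interneuron, CA3, choroid plexus and ependymal lists changed sign when single libraries were left out and are given as ranges over the 12 fits, -0.19 to 0.21, -0.04 to 0.05, -0.01 to 0.31, -0.24 to 0.09 and -0.29 to 0.17. Those of the astrocyte and the microglia and complement lists ranged from 0.06 to 0.17 and from 0.05 to 0.26, with the lowest values when CR replicate 2 and AL replicate 0, respectively, were left out. The part of these marker differences in the results on other families was not tested beyond the covariate fits.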

How the data were processed

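RNA from the CA1 region of 22 mice was sequenced by the study as paired-end, unstranded mRNA libraries, 1 per mouse. Per the labels and the study's methods, the authors aligned reads with TopHat to mm10, removed duplicates with Picard and made the deposited FPKM values with Cufflinks, using bias and multi-read correction. The annotation release and tool versions are not given in the sources used here. FPKM hold no read counts, and whole reads could not be recovered (at most 1.73% of low genes shared a common ratio). The study gives only an average number of reads per sample, so the depth of each library is unknown. Median FPKM per library was 2.58 to 3.10.

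Log2(FPKM + 0.1) of genes with a mean of at least 0.1 over 22 libraries (16978 of 23361) was fitted with limma 3.58.1 in R 4.3.3 as 4 group means, with a trended eBayes step and Benjamini-Hochberg adjustment over all genes tested (two-sided). The scripts were tested on simulated data. The contrasts were CR against AL at each age, their difference, and AL at 15 against 5 months. Exact permutation tests of single genes used numpy 2.4.6, and their p is the same for every gene without overlap. Named genes were the 12 largest non-overlapping called changes in each direction at 1 FPKM or more, called list members, the 5 most abundant called genes (small RNA entries are counted as a family and not named), and fixed genes of the 69 lists. A few ER genes were added after their values were seen, and 1 gene is not reported here. The members and lists were chosen with earlier results of these data known. Alternatives covered pseudocount, filters, scaling, covariates, libraries and pairing.

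Gene coordinates are from GENCODE M21 and promoters from RefSeq, both on GRCm38.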

Additional observations from a re-analysis of the deposited data

Results flagged for a closer look

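Of 272 tests for a single library far from the other 5 of its group, 7 were past Dixon's 95% limit, where chance gives about 1 in 20. Hspb1 was 8.28 FPKM in CR replicate 4 and 12.9 to 16.2 in the other CR mice at 15 months. Tnfrsf11a was 1.06 FPKM in AL replicate 2 against 1.33 to 1.51 in the other AL mice, and 1700102P08Rik was 0.984 FPKM in AL replicate 0 against 0.684 to 0.771. The cortical layer marker Cux2 was 10.05 FPKM in AL replicate 2 against 20.4 to 25.9. The globin gene Beta-s was 1.24 FPKM in CR replicate 0 against 15.6 to 29.0. The CA3 marker score, a mean log2 level, was 3.252 in CR replicate 4 against 2.053 to 2.422, and the ependymal and motile cilia score was 0.999 in AL replicate 2 against -1.179 to -0.541. No library was removed for these values.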

How the results depend on the processing

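The number of genes called for CR against AL at 15 months was 126. It was 77 with quantile normalization, 0 with the 15-month libraries fitted alone (2003 genes at an unadjusted p under 0.05 by limma), 6 with the region score and 15 with the dentate granule cell score as a covariate, the last chosen after seeing the data. Leaving out 1 library gave 15 to 732 calls, and the cause was not tested. It stayed within 1.5 times 126 with a pseudocount of 1 (155) or 0.01 (96), with no filter (106) or a mean of at least 1 FPKM (104), with a common median (138), without small RNA entries (144), without the trend (116) and with the choroid plexus score (113). Genes whose CR effect differed between the ages numbered 0 in these fits, and 0 to 1 when 1 library was left out, the 1 without AL replicate 5 at 15 months.

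With the replicate number as a block, 323 genes were called, 124 of them shared with the 126. The labels share only a number between groups: deviations of same-numbered libraries correlated at -0.0912 to 0.0448 over 6 pairs, 0 of them above 0.1, and 1 AL library correlated best with its own number.

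Over 124 named genes, the 12 left-out fits gave 304 lost calls and 63 gained calls, and the other alternatives 174 and 32. Direction reversed only for genes not called. Without 1 library Arntl ranged from -0.0189 to 0.125, Herpud1 from -0.0279 to 0.0700, Nr3c1 from -0.0486 to 0.129, Prkaa1 from -0.0082 to 0.0890 and Wfs1 from -0.400 to 0.119, and with quantile normalization Herpud1 was -0.0064. The depth of each library is unknown, so counting error could not be set beside any value.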
